A study of Mus musculus with 8 samples.

Results

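The response of wild-type hepatocytes to carbon tetrachloride (CCl4) was measured by RNA sequencing in 4 of the 8 libraries of the series. They were chosen by their titles alone: 2 libraries of C57BL/6 mice given CCl4 and 2 of C57BL/6 mice given its carrier, olive oil. All were from male mice, 4 weeks old, with no altered allele. The CCl4 mice had received a mixture of 12.5% CCl4 in olive oil, and the exposure to either treatment lasted 24 h. Primary hepatocytes were then isolated from the liver by collagenase digestion, so cells that did not survive the isolation were not measured. The other 4 libraries came from Hamp-/- mice under the same treatments and enter here only in the test of the difference between the genotypes. The title of the series names hepatocyte apoptosis and PERK, the stress kinase of the endoplasmic reticulum encoded by Eif2ak3, in acute liver injury. The design text gives 6 mice for each group, and the labels leave unsaid if the 2 libraries per group were of separate mice, so every p-value measures only the spread between those 2 libraries.

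CCl4 is a solvent that harms the liver after the cytochrome P450 enzyme Cyp2e1 turns it into a radical that attacks membrane lipids. Cyp2e1 is found in the hepatocytes around the central vein, and these pericentral cells are the ones the solvent injures most, while the periportal cells at the other end of the lobule are largely spared. In the days after the injury the surviving hepatocytes enter the cell cycle and macrophages gather in the damaged zone.

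The hepatocyte label was checked against 20 hepatocyte genes, which made up 18.2% and 18.6% of the summed values after CCl4, against 16.4% and 16.2% with oil. Alb, which encodes albumin, was the most abundant gene in both groups. The unit is FPKM, fragments scaled by transcript length and by the mapped fragments of the library. Genes with at least 1 FPKM numbered 9319 and 9296 after CCl4, against 9047 and 8992 with oil. The 2 libraries of each group correlated at 0.9976 after CCl4 and 0.9977 with oil over the tested genes, and their difference had an SD of 0.139 on the log2 scale in each group. Read depth is unknown, so precision is known only from these pairs.

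Of 16337 genes, 9434 had at least 1 FPKM in at least 2 of the 4 libraries and were tested. Changes are given as log2 changes, the mean of log2(FPKM + 1) after CCl4 minus that with oil, a scale that understates the change of genes with few FPKM. Genes are said to rise or fall where limma gave a Benjamini-Hochberg adjusted p under 0.05 over all tested genes. By that rule 4001 genes changed, 42.4% of those tested, of which 2433 (25.8%) rose and 1568 (16.6%) fell. In each of the 4001 the CCl4 pair lay wholly above or wholly below the oil pair. With 2 libraries per group the call itself nearly requires this, so it adds no support. Genes that did not pass can also be separated in this way, as Eif2ak3 and Hspa1b were. Most of the changes were small: 1791 of the increases and 1275 of the decreases were under 1.5-fold on this scale, while 317 increases and 84 decreases reached 2-fold, and 76 and 16 reached 4-fold. The balance of increases and decreases depended on the scaling of the libraries. Increases were 60.8% of the changes in the deposited FPKM, 48.0% after quantile normalization, 48.6% with equal library medians and 71.8% with each library rescaled to the same sum, which also put more genes past the filter (10253 tested) and made the pseudocount smaller relative to the values. The median log2 change of all tested genes was 0.037, -0.022, -0.016 and 0.099 under these 4 scalings, and no gene group is given a direction here that those scalings turned round unless this is said. A gene under 1 FPKM in both oil libraries was tested only where it was high after CCl4, so counts over lists of low genes lean upward. Every list count below stands against the shares over all tested genes, 25.8% higher and 16.6% lower.

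**Figure D1:**
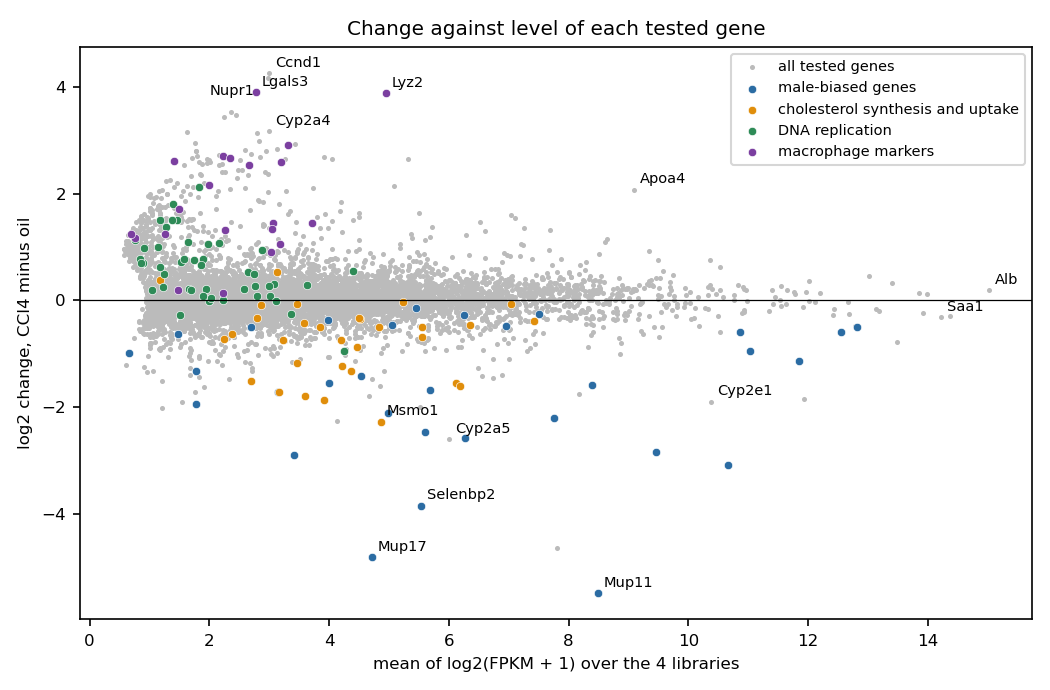
The log2 change of each tested gene (vertical axis, CCl4 minus oil) is plotted against its mean log2(FPKM + 1) over the 4 libraries (horizontal axis), with every tested gene in grey and the male-biased, cholesterol, replication and macrophage marker lists in colour. The 317 increases of at least 2-fold outnumbered the 84 decreases, and the lowest points are Mup genes.

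The largest changes fell into a few families. Ranked among genes above the median level, 8 of the 20 largest increases (Lyz2, S100a9, Ctss, S100a8, Cd74, Tyrobp, H2-Aa and H2-Ab1) were on the lists of macrophage markers, neutrophil and monocyte markers or class II antigen presentation. Of the 20 largest decreases, 9 were Mup genes, which encode the major urinary proteins, and 3 (Msmo1, Idi1 and Nsdhl) were cholesterol genes. Cyclin D1, encoded by Ccnd1 and needed to leave the resting state, had the largest increase in that ranking, with 32.98 and 34.96 FPKM after CCl4, against 0.74 and 0.89 FPKM with oil (log2 change 4.27, SE 0.078, limma adjusted p = 3.16e-10). Nupr1, a small chromatin protein that stress induces, came next with 33.7 and 31.3 FPKM after CCl4, against 1.09 and 0.64 FPKM with oil (log2 change 4.18, SE 0.11, limma adjusted p = 3.73e-09). Both genes were near or below 1 FPKM in each oil library and above 30 FPKM in each CCl4 library.

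**Figure D2:**
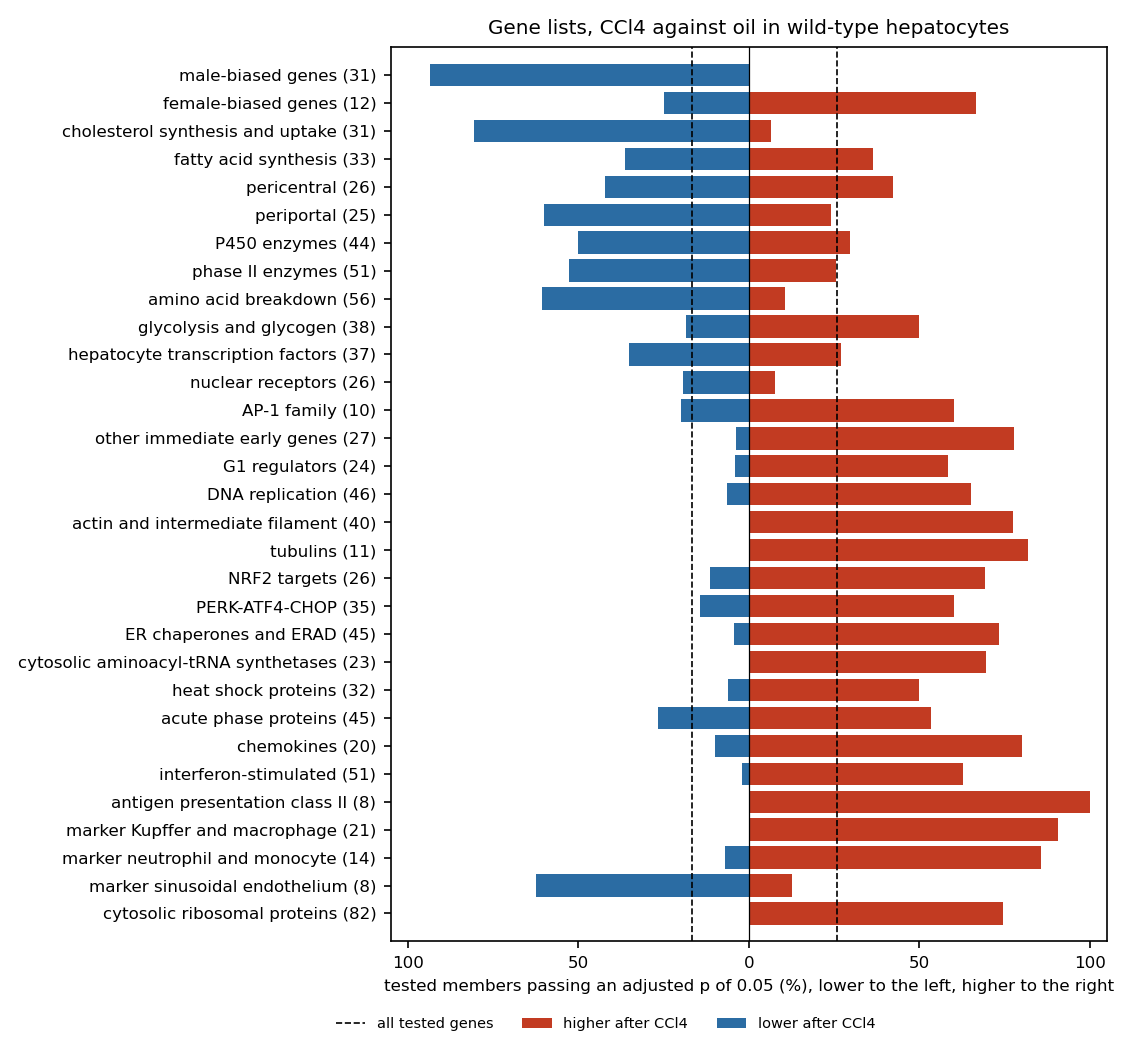
Each row is a gene group, with the percent of its tested members that rose after CCl4 drawn to the right and the percent that fell to the left. The dashed lines give the shares over all tested genes, 25.8% higher and 16.6% lower. The male-biased, cholesterol, amino acid breakdown and periportal groups reach far to the left, and class II antigen presentation, macrophage markers, tubulins and actin genes far to the right.

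Markers of cells other than hepatocytes moved with the treatment, so they are given before the groups they touch. Of 21 tested macrophage markers, 19 rose, 0 fell and 2 did not pass, with 7 of the 19 under 1 FPKM in both oil libraries, and the summed list was 0.0553% and 0.0584% of all FPKM after CCl4, against 0.00804% and 0.00905% with oil. Lyz2, the lysozyme of macrophages and other myeloid cells, had 114 and 121 FPKM after CCl4, against 6.38 and 7.64 FPKM with oil (log2 change 3.89, SE 0.077, limma adjusted p = 5.17e-10). Gpnmb, a glycoprotein of lipid-laden macrophages, had 5.53 and 5.56 FPKM after CCl4, against 0.1 and 0.04 FPKM with oil. By contrast Clec4f, which marks the resident Kupffer cells, had 4.4 and 3.49 FPKM after CCl4, against 3.13 and 3.87 FPKM with oil, and Vsig4, another Kupffer cell receptor, had 1.74 and 2.22 FPKM after CCl4, against 1.81 and 1.42 FPKM with oil, with neither past the threshold. Timd4 was at 0.36 and 0.46 FPKM after CCl4 and 0.31 and 0.23 FPKM with oil, too low to be tested. Clec4f and Vsig4 were the 2 of the 21 that did not pass and were named for that. Every other tested member of the list rose, among them C1qa, C1qb and C1qc (log2 change 1.06, 1.45 and 1.34), so resident cells cannot be read from Clec4f and Vsig4 alone.

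Neutrophil and monocyte markers were likewise higher. Of 14 tested, 12 rose and 1 fell, while F10, a coagulation factor that hepatocytes make in quantity, did not pass. Of the 12 that rose 7 were under 1 FPKM in both oil libraries and met the filter only through CCl4. Of the other 7 tested 5 rose and 1 fell, against 25.8% higher and 16.6% lower over all genes. Without F10, left out after its values were seen, the summed list was 0.0186% and 0.0191% of all FPKM after CCl4, against 0.00303% and 0.00282% with oil. S100a8 and S100a9 encode the subunits of calprotectin, the main cytosolic protein of neutrophils. S100a9 had 26.8 and 31.4 FPKM after CCl4, against 3.62 and 2.32 FPKM with oil, and S100a8 had 24.5 and 20.8 FPKM after CCl4, against 1.85 and 2.79 FPKM with oil. Ly6g, the usual neutrophil surface marker, went the other way, with 3.89 and 3.39 FPKM after CCl4, against 5.68 and 4.13 FPKM with oil (log2 change -0.34, a call lost without CCl4 replicate 2 or oil replicate 1). Haemoglobin genes rose too, with Hba-a1 at 25.3 and 26.2 FPKM after CCl4, against 8.33 and 7 FPKM with oil, and Hbb-bt was at 3.43 and 2.62 FPKM after CCl4 and listed at 0 in both oil libraries. Without Alas2, also left out after its values were seen, the erythroid and platelet list summed to 0.0121% and 0.0115% of FPKM after CCl4, against 0.00281% and 0.00318% with oil.

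Endothelial and stellate cell markers were near the floor in both groups. Of 23 sinusoidal markers only 8 could be tested, of which 1 rose and 5 fell, and the list summed to 0.00292% and 0.00307% after CCl4, against 0.00351% and 0.00415% with oil. Clec4g, a lectin of the sinusoidal cells, had 1.24 and 1.49 FPKM after CCl4, against 2.74 and 4.12 FPKM with oil (log2 change -0.89). The stellate list summed to 0.00106% and 0.000985% after CCl4, against 0.00072% and 0.000771% with oil, and its collagen genes Col1a1, Col1a2 and Col3a1 were at most 0.28 FPKM in all 4 libraries. The cholangiocyte list stood at 0.00745% and 0.00776% after CCl4, against 0.00181% and 0.00181% with oil, nearly all of it Spp1, while the duct keratins Krt19 and Krt7 stayed under 1 FPKM. T and NK cell markers left 1 gene to test, and B cell markers left 0. In bulk RNA more cells of a type and more RNA per cell cannot be told apart, and the part of these cells in the results below was not tested.

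**Figure D3:**
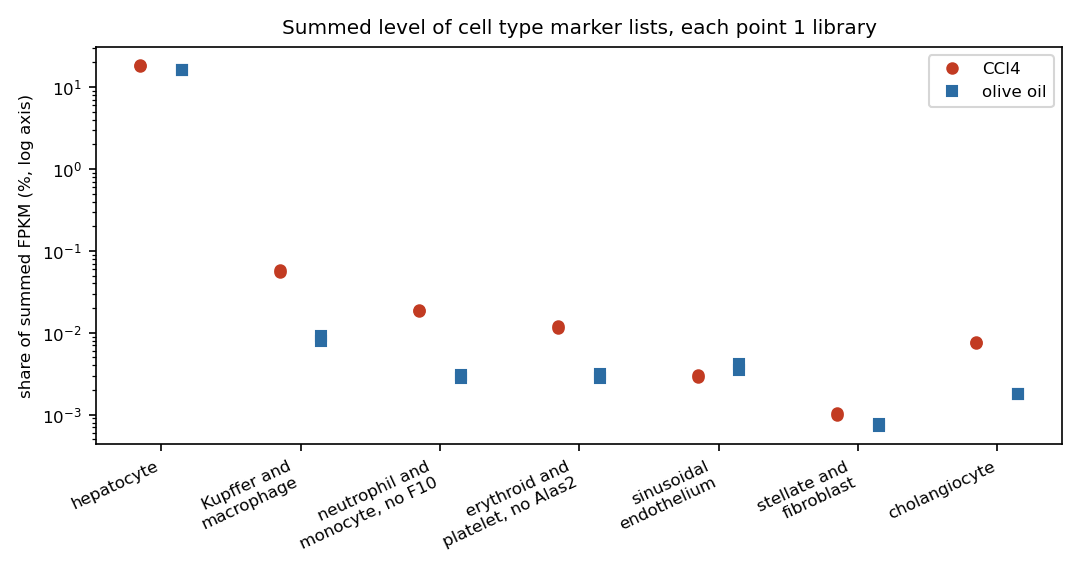
The summed FPKM of each marker list as a percent of all FPKM is drawn for each library on a log axis, CCl4 libraries before oil libraries. Macrophage, neutrophil and erythroid sums are several-fold higher in both CCl4 libraries, hepatocyte sums are 18.2% and 18.6% against 16.4% and 16.2%, and the neutrophil and erythroid lists are drawn without F10 and Alas2.

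Cyp2e1 itself fell. Its level was 677 and 692 FPKM after CCl4, against 2552 and 2557 FPKM with oil (log2 change -1.90, SE 0.038, limma adjusted p = 5.17e-10), although the mRNA was still abundant in both CCl4 libraries. The pericentral list, which holds Cyp2e1, moved both ways, with 11 of 26 rising and 11 falling. Among those that fell were Slc1a2, a glutamate transporter of the cells next to the central vein, with 0.14 and 0.16 FPKM after CCl4, against 3.96 and 3.42 FPKM with oil, and Glul, the glutamine synthetase of the same cells, with 12.8 and 13.7 FPKM after CCl4, against 24.3 and 27.1 FPKM with oil (log2 change -0.91, SE 0.071, limma adjusted p = 5.29e-06). Among those that rose were Lect2 with 151 and 152 FPKM after CCl4, against 52.95 and 55.7 FPKM with oil, the vitamin C enzyme Gulo with 245 and 241 FPKM after CCl4, against 93.2 and 96.1 FPKM with oil, and Cyp1a2, which metabolises caffeine, with 281 and 282 FPKM after CCl4, against 145 and 145 FPKM with oil. Wnt signalling maintains this zone, and its feedback genes Axin2 (log2 change 0.69), Znrf3 (0.44) and Rnf43 (0.39) rose from low levels, while Cyp2e1, Slc1a2 and Glul of the zone fell. The transcription factor Tbx3 (0.36) rose too, though it did not pass without CCl4 replicate 1 or oil replicate 2. The levels of Axin2 were 1.3 and 1.13 FPKM after CCl4, against 0.5 and 0.26 FPKM with oil, so it met the filter only through CCl4.

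Periportal genes leaned down: 15 of 25 fell, 6 rose and 4 did not pass, with a median log2 change of -0.19 against 0.037 over all genes. Hal, which starts the breakdown of histidine, had 70.8 and 72.8 FPKM after CCl4, against 154 and 156 FPKM with oil (log2 change -1.10, SE 0.046, limma adjusted p = 6.17e-08). Cyp2f2, the P450 that marks the periportal zone, had 328 and 328 FPKM after CCl4, against 662 and 651 FPKM with oil. Both pairs were separated by a wide margin. Cps1, the first enzyme of the urea cycle, was an exception that rose, with 967 and 1057 FPKM after CCl4, against 737 and 715 FPKM with oil (log2 change 0.48), as did G6pc, the last step of glucose release (0.72).

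Drug-metabolising enzymes fell more often than they rose. Of 44 P450 genes, 22 fell and 13 rose, and of 51 conjugating and hydrolysing enzymes 27 fell and 13 rose, against 16.6% lower and 25.8% higher over all genes. Cyp2c37 fell to 17.1 and 19.2 FPKM after CCl4, against 48.6 and 45.4 FPKM with oil. A near-identical pair of genes went opposite ways: Cyp2a4 had 18.1 and 29.2 FPKM after CCl4, against 1.68 and 1.6 FPKM with oil, and Cyp2a5 had 23.7 and 26.6 FPKM after CCl4, against 158 and 158 FPKM with oil. Since reads from this pair can be assigned to either copy, their sum is the safer value, at 41.8 and 55.8 FPKM after CCl4, against 159 and 159 FPKM with oil. Among conjugating enzymes, the carboxylesterase Ces3b fell (63.1 and 63.7 FPKM after CCl4, against 178 and 175 FPKM with oil) and the glutathione transferase Gsta1 rose (12.6 and 9.87 FPKM after CCl4, against 2.1 and 0.98 FPKM with oil). Por, the electron donor of the P450 enzymes, rose slightly (log2 change 0.23), which did not pass without oil replicate 1.

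Genes that male mouse livers express above female ones fell almost without exception. The growth hormone that the pituitary releases in pulses in males keeps these genes on through Stat5b. Of 31 tested, 29 fell, 0 rose and 2 did not pass, with a median log2 change of -1.42 against 0.037 over all genes, and 18 fell at least 2-fold. Mup11 had 51.3 and 53.6 FPKM after CCl4, against 2463 and 2348 FPKM with oil (log2 change -5.49, SE 0.045, limma adjusted p = 8.90e-13). Mup20, a urinary protein that acts as a male pheromone, had 2434 and 2542 FPKM after CCl4, against 5543 and 5458 FPKM with oil. Mup copies are so alike that reads may have been shared between them, but the sum of 21 Mup genes also fell, to 25105 and 26264 FPKM after CCl4, against 56420 and 54185 FPKM with oil. That sum was 4.25% and 4.51% of all FPKM after CCl4 and 9.26% and 8.79% with oil.

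Outside the Mup family the decreases were as clear. Selenbp2, a selenium-binding protein, had 10.9 and 11.4 FPKM after CCl4, against 178 and 171 FPKM with oil (log2 change -3.85, SE 0.053, limma adjusted p = 4.44e-11). Cyp7b1, an oxysterol hydroxylase, had 2.97 and 2.83 FPKM after CCl4, against 28.9 and 27.4 FPKM with oil, and Elovl3, an elongase of very long fatty acids, had 0.75 and 0.74 FPKM after CCl4, against 5.57 and 5.83 FPKM with oil. No CCl4 library reached an oil library in any of the 3. The steroid dehydrogenase Hsd3b5 (9.04 and 7.82 FPKM after CCl4, against 26.2 and 26.6 FPKM with oil) and the fatty acid hydroxylase Cyp4a12a (13.5 and 15.1 FPKM after CCl4, against 65.8 and 63.98 FPKM with oil) fell as well. Slco1a1, a transporter of organic anions, was among the few that did not pass (38.6 and 42.1 FPKM after CCl4, against 44.7 and 45.01 FPKM with oil).

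Of the 12 female-biased genes that could be tested 8 rose and 3 fell. Of those that rose 4 were under 1 FPKM in both oil libraries and met the filter only through CCl4, so the count is no measure of the list. The peroxisomal thioesterase Acot3 had 6.1 and 5.71 FPKM after CCl4, against 0.8 and 0.79 FPKM with oil, Cyp2b9 had 4.6 and 4.29 FPKM after CCl4, against 0.84 and 0.97 FPKM with oil, and A1bg had 2.99 and 2.52 FPKM after CCl4, against 0.37 and 0.4 FPKM with oil. Among those that fell was Cyp2c38, with 0.97 and 1.34 FPKM after CCl4, against 5.15 and 4.55 FPKM with oil (log2 change -1.44). The other 12 genes of the list found in the table, Cyp3a41a, Cyp3a44, Sult3a1 and Cux2 among them, were too low to be tested. Within the growth hormone axis, 5 of 15 rose (33.3%) and 4 fell (26.7%), against 25.8% and 16.6% over all tested genes. Bcl6, a repressor tied to the male pattern, had 2.43 and 2.66 FPKM after CCl4, against 4.03 and 4.45 FPKM with oil (log2 change -0.56), and Stat5b had 5.39 and 5.06 FPKM after CCl4, against 7.69 and 6.86 FPKM with oil (-0.41). The feedback inhibitor Cish had 5.3 and 4.81 FPKM after CCl4, against 2.62 and 2.07 FPKM with oil (log2 change 0.86). Igf1, the circulating mediator of growth hormone, had 50.6 and 54.2 FPKM after CCl4, against 45.9 and 46.8 FPKM with oil (log2 change 0.17), a call that was lost without CCl4 replicate 2 or either oil replicate and with equal library medians. The receptor gene Ghr did not pass (112 and 116 FPKM after CCl4, against 123 and 125 FPKM with oil).

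**Figure D4:**
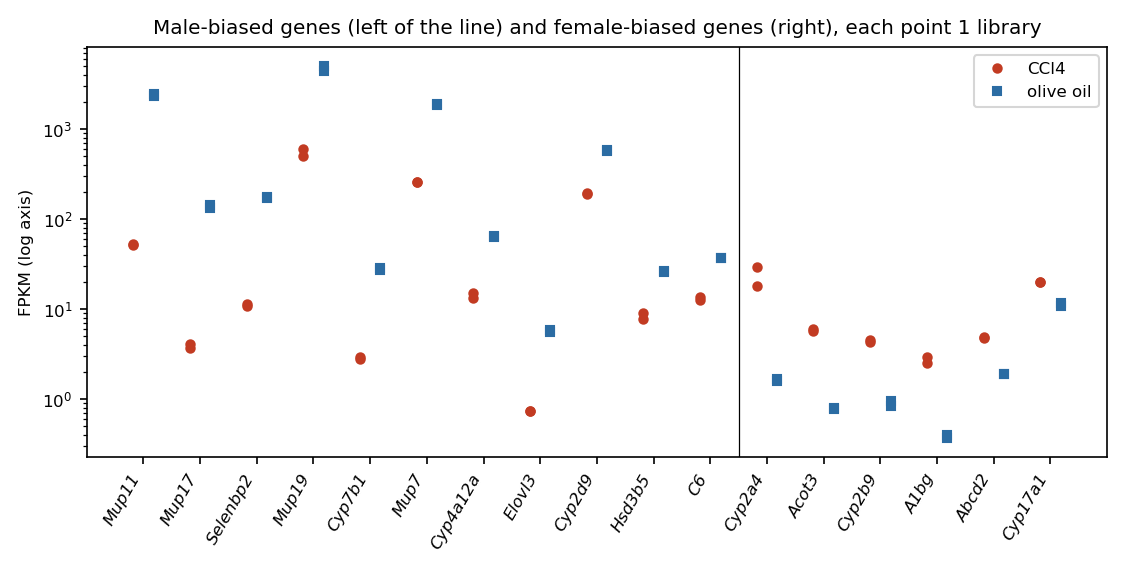
The FPKM of male-biased and female-biased genes are drawn for each library on a log axis, CCl4 libraries and oil libraries in separate colours. The male-biased genes shown lie lower in both CCl4 libraries, by up to a log2 change of -5.49 for Mup11. The female-biased genes shown were picked among those that rose, and genes of that list that fell, such as Cyp2c38, are not drawn.

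The pathway that makes cholesterol fell as a block. Cholesterol is built from acetyl-CoA through mevalonate, squalene and lanosterol, and SREBP2, encoded by Srebf2, switches on the genes of every step when sterols run low. Of 31 tested genes, 25 fell, 2 rose and 4 did not pass (median log2 change -0.64, against 0.037 over all genes), and the count of decreases was 25 with any 1 of the 4 libraries left out. In the mevalonate steps Mvk, the kinase of mevalonate, had 3.07 and 2.63 FPKM after CCl4, against 9.69 and 10.1 FPKM with oil (log2 change -1.50, SE 0.084, limma adjusted p = 4.78e-07), and Idi1, the isomerase of the isoprene unit, had 6.5 and 7.31 FPKM after CCl4, against 28.7 and 26.7 FPKM with oil, though Idi1 did not pass where all 8 libraries shared 1 estimate of spread (adjusted p = 0.0675).

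In the sterol steps, Sqle, which oxidises squalene, had 3.98 and 3.91 FPKM after CCl4, against 15.2 and 15.5 FPKM with oil (log2 change -1.73). Msmo1, which removes methyl groups from lanosterol products, had the largest decrease of the group, with 11.9 and 12.5 FPKM after CCl4, against 63.02 and 62.8 FPKM with oil (log2 change -2.28, SE 0.057, limma adjusted p = 2.66e-09). Nsdhl, acting beside Msmo1, had 5.35 and 5.73 FPKM after CCl4, against 21.9 and 21.2 FPKM with oil. Among the genes of its control Insig1, which holds SREBP back in the endoplasmic reticulum, fell, with 42.8 and 38.7 FPKM after CCl4, against 129 and 124 FPKM with oil. Srebf2 fell too and had 5.23 and 5.15 FPKM after CCl4, against 6.81 and 6.75 FPKM with oil (log2 change -0.33). The exceptions that rose were Aacs and Ggps1, of which Ggps1 did not pass without CCl4 replicate 1 or oil replicate 2, while Insig2, Stard4, Ebp and Hsd17b7 did not pass.

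The promoters of 3 genes of this pathway are printed to show the word CCAAT, the binding word of the factor NF-Y, which is known to work beside SREBP2. They are RefSeq sequences of GRCm38.p6, 250 bases before to 50 after the annotated start, read on the gene's strand, with CCAAT or its reverse complement ATTGG in capitals. Msmo1 is at chr8:64733529-64733828 (- strand), Idi1 at chr13:8885356-8885655 (+ strand) and Nsdhl at chrX:72918271-72918570 (+ strand).
Msmo1: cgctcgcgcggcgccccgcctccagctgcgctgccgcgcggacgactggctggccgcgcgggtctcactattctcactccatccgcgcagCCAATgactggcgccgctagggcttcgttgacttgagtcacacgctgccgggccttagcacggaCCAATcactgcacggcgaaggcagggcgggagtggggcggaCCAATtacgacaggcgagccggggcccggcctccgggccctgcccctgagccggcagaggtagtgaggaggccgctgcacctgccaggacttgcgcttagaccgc
Idi1: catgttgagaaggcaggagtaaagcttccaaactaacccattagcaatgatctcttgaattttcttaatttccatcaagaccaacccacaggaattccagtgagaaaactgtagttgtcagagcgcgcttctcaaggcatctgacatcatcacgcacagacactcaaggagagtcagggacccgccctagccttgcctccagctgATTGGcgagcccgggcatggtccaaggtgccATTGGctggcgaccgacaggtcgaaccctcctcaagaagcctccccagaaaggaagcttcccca
Nsdhl: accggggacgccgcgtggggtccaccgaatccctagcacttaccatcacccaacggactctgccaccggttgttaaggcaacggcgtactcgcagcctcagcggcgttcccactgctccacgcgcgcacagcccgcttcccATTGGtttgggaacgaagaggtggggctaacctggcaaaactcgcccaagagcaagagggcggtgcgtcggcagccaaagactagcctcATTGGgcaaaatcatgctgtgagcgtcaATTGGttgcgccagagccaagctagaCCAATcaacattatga
Msmo1 held the word 3 times, Idi1 2 times and Nsdhl 4 times. Of the 23 listed cholesterol genes with a promoter in the RefSeq table, 20 (87.0%) held CCAAT on either strand, against 43.1% of 7392 tested genes and 41.1% of all 27025 genes with a promoter. TCACNCCAC, a word of the sterol element that SREBP factors bind, was in 1 of the 23 (4.3%), against 1.5% of tested genes and 1.4% of all genes. That promoter was of Hmgcs1, an early enzyme of the pathway, at chr13:119690101-119690400 (+ strand), printed with the word in capitals.
Hmgcs1: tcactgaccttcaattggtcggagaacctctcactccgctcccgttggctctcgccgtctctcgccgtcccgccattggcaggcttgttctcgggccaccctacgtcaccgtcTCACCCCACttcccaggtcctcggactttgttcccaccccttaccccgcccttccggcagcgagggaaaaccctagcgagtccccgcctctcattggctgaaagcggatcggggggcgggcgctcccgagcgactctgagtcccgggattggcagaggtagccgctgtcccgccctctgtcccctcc
The level of Hmgcs1 was 15.1 and 15.5 FPKM after CCl4, against 29.4 and 28.5 FPKM with oil. A match describes these letters only and shows no bound factor.

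Fatty acid genes rose and fell in equal number. SREBP1 and ChREBP, encoded by Srebf1 and Mlxipl, are the factors known to drive them. Of 33 tested, 12 rose and 12 fell. Scd1, the desaturase that makes oleic acid, had 223 and 231 FPKM after CCl4, against 75.3 and 72.6 FPKM with oil (log2 change 1.61, SE 0.047, limma adjusted p = 7.13e-09), and the elongase Elovl6 had 16.2 and 17.96 FPKM after CCl4, against 7.21 and 6.46 FPKM with oil. Acaca, the carboxylase of the first step, and Fasn, the synthase, also rose (log2 change 0.60 and 0.37). Against these, Acss2, which activates acetate, had 16.4 and 16.9 FPKM after CCl4, against 31.8 and 30.4 FPKM with oil, and Fads1, a desaturase of polyunsaturated fatty acids, had 56.05 and 53.7 FPKM after CCl4, against 80.8 and 81.3 FPKM with oil. Srebf1 had 143 and 134 FPKM after CCl4, against 109 and 109.5 FPKM with oil (log2 change 0.33), and Mlxipl had 25.6 and 19.4 FPKM after CCl4, against 46.1 and 35.6 FPKM with oil (log2 change -0.83).

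**Figure D5:**
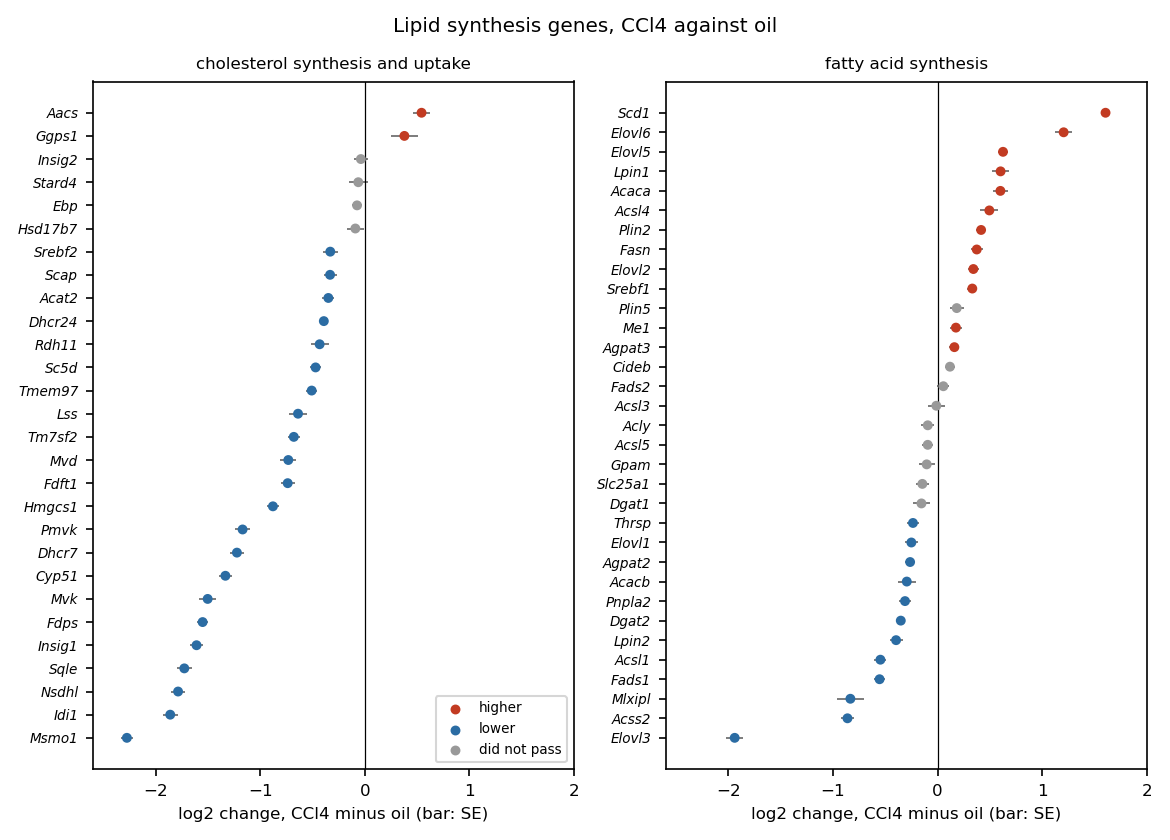
The log2 change of genes of cholesterol synthesis and uptake and of fatty acid synthesis is drawn with its SE. Of the 28 cholesterol genes drawn 22 fell, while fatty acid genes split evenly, with Scd1 highest at 1.61 and Elovl3 lowest at -1.94.

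Genes of lipid transport changed singly. Apoa4, an apolipoprotein of triglyceride-rich particles, had 1134 and 1095 FPKM after CCl4, against 255 and 271 FPKM with oil (log2 change 2.08, SE 0.046, limma adjusted p = 1.03e-09), while Apoa1, the main protein of high-density lipoprotein, had 6217 and 5703 FPKM after CCl4, against 8102 and 8544 FPKM with oil. Lpl, which adult hepatocytes barely express and macrophages do, had 4.62 and 4.58 FPKM after CCl4, against 0.96 and 0.92 FPKM with oil, beside the macrophage marker sums given above, and its source was not tested. Angptl8, an inhibitor of that lipase, had 350.4 and 303 FPKM after CCl4, against 125 and 133 FPKM with oil. In fatty acid oxidation the thioesterases Acot1 (13 and 13.1 FPKM after CCl4, against 2.64 and 3.2 FPKM with oil) and Acot4 (8.61 and 10.4 FPKM after CCl4, against 4.87 and 4.48 FPKM with oil) rose, and Cpt1a, which admits fatty acids to mitochondria, did not pass (55.96 and 58.9 FPKM after CCl4, against 64.4 and 61.5 FPKM with oil). Counts over these lists were 20 higher and 15 lower of 50 for oxidation, and 12 and 9 of 31 for lipoproteins, and the sign of their balance turned with the scaling of the libraries.

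Genes of bile acid synthesis moved both ways, 6 rising (28.6%) and 7 falling (33.3%) of 21, against 25.8% and 16.6% over all tested genes. Cyp7a1, the rate-limiting enzyme, had 27.9 and 30.5 FPKM after CCl4, against 25.3 and 23.5 FPKM with oil (log2 change 0.25), an increase that did not pass without CCl4 replicate 2 or without oil replicate 2. Cyp8b1, which decides for cholic acid, had 21.6 and 22.2 FPKM after CCl4, against 92.5 and 88.7 FPKM with oil (log2 change -2.0, SE 0.053, limma adjusted p = 4.08e-09). With Cyp7b1 of the acidic pathway, described above, it had the largest decreases of the 21 tested genes of this list. Among transporters, Slc10a1, which takes bile acids up from blood, had 218 and 239 FPKM after CCl4, against 295 and 289 FPKM with oil, and Abcc3, which returns them to blood, had 20.6 and 21.3 FPKM after CCl4, against 33.4 and 33.8 FPKM with oil, both lower. The canalicular phospholipid pump Abcb4 had 53.9 and 56.6 FPKM after CCl4, against 33.4 and 32.1 FPKM with oil and rose, whereas the bile salt pump Abcb11 did not pass (91 and 95.7 FPKM after CCl4, against 87.6 and 86.7 FPKM with oil).

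Genes that break down amino acids fell broadly and by little. Of 56 tested, 34 fell, 6 rose and 16 did not pass (median log2 change -0.23), and 2 of the decreases reached 2-fold. Each of the 4 listed enzymes of histidine breakdown fell, with log2 changes of -1.10 for Hal, -0.45 for Uroc1, -0.77 for Amdhd1 and -0.94 for Ftcd. Ftcd had 70 and 64.98 FPKM after CCl4, against 136 and 124 FPKM with oil. Tdo2, which opens the ring of tryptophan, had 575 and 568 FPKM after CCl4, against 928 and 916 FPKM with oil, and Sds, the serine dehydratase, had 122 and 118 FPKM after CCl4, against 219 and 226 FPKM with oil. Hgd, of tyrosine breakdown, was the clearest of those that rose beside Acmsd, with 382 and 371 FPKM after CCl4, against 249 and 255 FPKM with oil. In nitrogen disposal Glud1, the glutamate dehydrogenase, had 493 and 494 FPKM after CCl4, against 268 and 271 FPKM with oil (log2 change 0.87, SE 0.041, limma adjusted p = 1.20e-07), and Ass1, Arg1 and Otc of the urea cycle did not pass. In the methionine cycle Ahcy, which clears S-adenosylhomocysteine, had 365 and 344 FPKM after CCl4, against 626 and 603 FPKM with oil, and Cbs, which leads on to cysteine, had 242 and 232 FPKM after CCl4, against 167 and 163 FPKM with oil.

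Glycolytic genes rose more often than they fell, 19 against 7 of 38. Pkm, the pyruvate kinase of most tissues other than liver, had 19.5 and 19.3 FPKM after CCl4, against 1.72 and 2.11 FPKM with oil (log2 change 2.81, SE 0.084, limma adjusted p = 7.39e-09), and the liver form Pklr had 76.96 and 77.6 FPKM after CCl4, against 33.5 and 32.8 FPKM with oil. Ldha, the lactate dehydrogenase subunit, had 908 and 894 FPKM after CCl4, against 468 and 475 FPKM with oil, and the lactate exporter Slc16a3 had 3.37 and 3.51 FPKM after CCl4, against 0.19 and 0.14 FPKM with oil. Pkm, Slc16a3 and Hk3 (1.23 and 1.31 FPKM after CCl4, against 0.22 and 0.19 FPKM with oil) are all abundant in myeloid cells, whose marker sums were higher too, and the part of those cells in these values was not tested.

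Of 37 transcription factors of the hepatocyte 10 rose (27.0%) and 13 fell (35.1%), against 25.8% and 16.6% over all tested genes. Most of them changed by little, and the balance turned with the scaling of the libraries. Hnf4a, central to hepatocyte identity, had 124 and 128 FPKM after CCl4, against 111 and 109 FPKM with oil (log2 change 0.20), which did not pass without either oil replicate. Cebpa, which keeps hepatocytes at rest, had 141 and 131 FPKM after CCl4, against 206 and 216 FPKM with oil (log2 change -0.63, SE 0.051, limma adjusted p = 6.80e-06), and its relative Cebpb, active in the acute phase, had 142 and 109.8 FPKM after CCl4, against 96.4 and 103 FPKM with oil, an increase lost without CCl4 replicate 1 or either oil replicate. Foxa2, Prox1 and Nr5a2 did not pass. Of 26 nuclear receptors 19 did not pass, Ppara and Nr1h4 among them. Ahr, the receptor for dioxin, rose (6.71 and 7.47 FPKM after CCl4, against 3.85 and 3.01 FPKM with oil).

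Immediate early genes, which answer growth factors and stress within minutes, were higher at 24 h. Of 27 tested outside the AP-1 family 21 rose, 1 fell and 5 did not pass (median log2 change 0.60), and of 10 AP-1 genes 6 rose and 2 fell. Over all tested genes 25.8% rose and 16.6% fell. Of the increases, 5 outside the AP-1 family and 2 within it were in genes under 1 FPKM in both oil libraries. Of the other 22 and 8 tested, 16 and 4 rose. Egr1 had 12.9 and 12.5 FPKM after CCl4, against 1.5 and 1.49 FPKM with oil (log2 change 2.46, SE 0.076, limma adjusted p = 8.96e-09). Fos had 12.7 and 11.4 FPKM after CCl4, against 1.38 and 1.38 FPKM with oil, Junb had 40.7 and 36.99 FPKM after CCl4, against 11.8 and 11.9 FPKM with oil and Atf3 had 6.85 and 7.26 FPKM after CCl4, against 0.82 and 0.68 FPKM with oil. Each of these was several-fold higher in both CCl4 libraries, and Jun itself rose less, with 16.3 and 15.1 FPKM after CCl4, against 11.99 and 10.8 FPKM with oil. Gadd45b, a growth arrest and repair gene, had 7.51 and 7.5 FPKM after CCl4, against 1.3 and 1.08 FPKM with oil, and Myc had 2.82 and 2.72 FPKM after CCl4, against 1.74 and 1.26 FPKM with oil (log2 change 0.60).

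The machinery of DNA replication rose and that of mitosis was hardly expressed. E2F factors switch on replication genes once cyclin D1 and its kinases release them from the retinoblastoma protein. Of 24 tested regulators of G1, 14 rose (58.3%), 1 fell (4.17%) and 9 did not pass, against 25.8% and 16.6% over all tested genes. Of the 14, 4 were under 1 FPKM in both oil libraries and met the filter only through CCl4. Of the other 20 tested 10 rose and 1 fell. Beside Ccnd1, Cdkn1a, the inhibitor p21, had 2.73 and 2.75 FPKM after CCl4, against 0.5 and 0.29 FPKM with oil, and Ccne1, cyclin E1, had 2.11 and 2.68 FPKM after CCl4, against 0.99 and 0.91 FPKM with oil. Of 46 replication genes 30 rose, 3 fell and 13 did not pass (median log2 change 0.54), and 12 of the increases were in genes under 1 FPKM in both oil libraries. Of the 33 replication genes not that low with oil, 18 rose and 3 fell, against 25.8% higher and 16.6% lower over all genes. Without CCl4 replicate 1 the rising genes numbered 15, and without CCl4 replicate 2 they numbered 17, where 33 genes in place of 46 met the filter on low values.

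All 6 subunits of the MCM helicase, which unwinds DNA at origins, rose. Of these, Mcm2, Mcm3, Mcm4 and Mcm5 were under 1 FPKM in both oil libraries. They could be tested only because they were high after CCl4, so the agreement of the subunits adds little. Mcm6 had 6.88 and 6.01 FPKM after CCl4, against 1.01 and 0.45 FPKM with oil (log2 change 2.12, SE 0.14, limma adjusted p = 1.58e-06), and Mcm3 had 4.07 and 3.72 FPKM after CCl4, against 0.35 and 0.46 FPKM with oil. Cdt1, which loads the helicase, had 3.84 and 3.39 FPKM after CCl4, against 0.65 and 0.6 FPKM with oil. No oil library passed 1.01 FPKM for these 3 genes. Pcna, the sliding clamp, had 25.3 and 23.9 FPKM after CCl4, against 16.6 and 16.3 FPKM with oil and rose less, and Tk1, a thymidine kinase, went the other way, with 12.4 and 12.9 FPKM after CCl4, against 26.5 and 24.02 FPKM with oil. Of 50 listed mitotic genes 12 could be tested, of which 8 rose and 2 fell. Of the 8, 3 were under 1 FPKM in both oil libraries and met the filter only through CCl4. Mki67, the marker of cycling cells, was at 0.22 and 0.26 FPKM after CCl4 and 0.05 and 0.05 FPKM with oil. Cdk1 was at 0.66 and 0.81 FPKM after CCl4 and 0.49 and 0.23 FPKM with oil, and Ccnb1 at 0.34 and 0.05 FPKM after CCl4 and 0.07 and 0 FPKM with oil.

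Promoters of 3 replication genes with an E2F word are printed, with the words in capitals, from the same RefSeq table and window. The words searched were TTTCCCGC, TTTGGCGC, TTTCGCGC and TTTGCCGC on both strands, and overlapping hits were merged. Mcm6 is at chr1:128359656-128359955 (- strand), Mcm3 at chr1:20820263-20820562 (- strand) and Cdt1 at chr8:122567765-122568064 (+ strand).
Mcm6: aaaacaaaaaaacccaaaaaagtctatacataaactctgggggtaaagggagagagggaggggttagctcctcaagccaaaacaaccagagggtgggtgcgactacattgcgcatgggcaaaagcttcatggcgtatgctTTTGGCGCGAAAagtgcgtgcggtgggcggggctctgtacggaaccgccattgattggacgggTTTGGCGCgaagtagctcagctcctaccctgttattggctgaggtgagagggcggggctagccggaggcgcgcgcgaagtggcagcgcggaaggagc
Mcm3: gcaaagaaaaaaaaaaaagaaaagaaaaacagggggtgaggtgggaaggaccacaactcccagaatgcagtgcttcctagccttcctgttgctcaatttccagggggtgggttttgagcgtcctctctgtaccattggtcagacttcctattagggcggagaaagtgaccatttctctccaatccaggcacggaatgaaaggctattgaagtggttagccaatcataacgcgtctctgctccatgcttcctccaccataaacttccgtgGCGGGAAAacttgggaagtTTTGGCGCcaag
Cdt1: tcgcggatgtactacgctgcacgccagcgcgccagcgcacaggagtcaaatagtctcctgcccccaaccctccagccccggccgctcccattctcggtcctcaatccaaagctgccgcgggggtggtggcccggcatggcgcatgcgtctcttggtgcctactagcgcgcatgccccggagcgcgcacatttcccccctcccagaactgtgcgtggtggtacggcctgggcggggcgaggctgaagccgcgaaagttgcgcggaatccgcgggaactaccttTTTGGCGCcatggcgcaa
Of 39 replication genes with a promoter, 12 (30.8%) held such a word, and 10 of the 25 that rose did. The share was 4.7% of tested genes and 2.6% of all genes.

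The cytoskeleton rose as a group. Of 11 tubulin genes 9 rose and 0 fell, and of 40 genes of actin and intermediate filaments 31 rose and 0 fell. Over all tested genes 25.8% rose and 16.6% fell. Of the increases, 1 among tubulins and 6 in the actin list were in genes under 1 FPKM in both oil libraries. Tubb2a, a beta tubulin, had 81.9 and 76.1 FPKM after CCl4, against 24.8 and 24.2 FPKM with oil (log2 change 1.65, SE 0.057, limma adjusted p = 1.62e-08), and Tuba8 had 10.6 and 10.5 FPKM after CCl4, against 2.43 and 2.71 FPKM with oil. Actg1 and Actb encode the cytoplasmic actins. Actg1 had 152 and 152 FPKM after CCl4, against 59.7 and 61.8 FPKM with oil (log2 change 1.31), and Actb had 259 and 271 FPKM after CCl4, against 167 and 165 FPKM with oil (0.67). Krt18, a keratin of hepatocytes, rose (log2 change 0.43), and its partner Krt8 did not pass (134 and 124 FPKM after CCl4, against 118 and 123 FPKM with oil).

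Several of the largest changes here were in genes that leukocytes express strongly. Vim, the intermediate filament of mesenchymal and blood cells, had 15.7 and 15.96 FPKM after CCl4, against 1.43 and 1.56 FPKM with oil (log2 change 2.76, SE 0.076, limma adjusted p = 4.35e-09). Tmsb4x, an actin-binding peptide, had 99.4 and 99.1 FPKM after CCl4, against 13.1 and 17.1 FPKM with oil, and Coro1a, the coronin of leukocytes, had 10.7 and 9.9 FPKM after CCl4, against 1.1 and 0.73 FPKM with oil. The same holds of S100a4 (7.85 and 8.21 FPKM after CCl4, against 0.23 and 0.35 FPKM with oil) and Anxa2 (9.79 and 9.91 FPKM after CCl4, against 0.7 and 1.03 FPKM with oil), in a list of annexins and S100 proteins with 10 higher and 2 lower of 18. In that list 4 of the 10 were under 1 FPKM in both oil libraries and met the filter only through CCl4. Of its other 14 tested genes 6 rose and 2 fell, against 25.8% higher and 16.6% lower over all genes. Macrophage and neutrophil marker sums moved with Vim, Tmsb4x, Coro1a, S100a4 and Anxa2, and the part of those cells in these values was not tested. The CArG box, the word of the serum response factor, was in 3 of 36 promoters of the actin list (8.3%) and 3 of 21 of the immediate early list (14.3%), but 0 of 9 of the AP-1 family, against 1.5% of tested genes.

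Most matrix genes were too low to be tested. Of 53, 16 were tested, with 9 higher, 4 lower and 3 that did not pass, and 3 of the increases were in genes under 1 FPKM in both oil libraries. Thbs1, a matrix protein that activates TGF-beta, had 7.95 and 8.92 FPKM after CCl4, against 0.17 and 0.27 FPKM with oil (log2 change 2.95, SE 0.093, limma adjusted p = 8.96e-09), and Fn1, fibronectin, which hepatocytes secrete into plasma, had 358 and 379.6 FPKM after CCl4, against 232 and 231 FPKM with oil. Tgfb1 had 4.7 and 3.91 FPKM after CCl4, against 0.94 and 1.15 FPKM with oil. Basement membrane collagens fell, with Col4a1 at 1.3 and 1.17 FPKM after CCl4, against 2.14 and 1.97 FPKM with oil. Of the targets of YAP, which senses cell shape, Cyr61 had 4.28 and 4.31 FPKM after CCl4, against 1.54 and 1.44 FPKM with oil, Ctgf stayed at 0.16 and 0.14 FPKM after CCl4 and 0.05 and 0.18 FPKM with oil, and Spp1, osteopontin, had 36.6 and 38.4 FPKM after CCl4, against 4.59 and 5.4 FPKM with oil, another gene that macrophages express.

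The oxidative stress response rose in part. NRF2, encoded by Nfe2l2, induces genes that restore glutathione and NADPH. Of 26 of its targets 18 rose, 3 fell and 5 did not pass. Hmox1, which degrades heme, had 13.5 and 11.7 FPKM after CCl4, against 2.2 and 3.2 FPKM with oil (log2 change 1.89, SE 0.12, limma adjusted p = 1.41e-06). The NADPH-making enzymes G6pdx (1.99 and 1.9 FPKM after CCl4, against 0.38 and 0.57 FPKM with oil) and Pgd (16.3 and 14.6 FPKM after CCl4, against 9.38 and 10.2 FPKM with oil) rose. Nqo1, often used as the index gene of NRF2, did not pass (1.38 and 2.12 FPKM after CCl4, against 2.53 and 1.93 FPKM with oil), nor did Gclc (73.01 and 73.8 FPKM after CCl4, against 75.3 and 69.9 FPKM with oil), while Gclm did (log2 change 0.26), except without oil replicate 1. TGACNNNGC, the antioxidant word, was in 11 of 22 promoters of the list (50%), against 17.7% of tested genes and 14% of all genes, on either strand.

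Other stress genes gave mixed values. Metallothioneins, which bind zinc and copper, fell: Mt1 had 620.2 and 537 FPKM after CCl4, against 811 and 809.7 FPKM with oil and Mt2 had 309 and 269 FPKM after CCl4, against 407 and 384 FPKM with oil. Zinc importers and exporters rose in the same list, Slc39a14 with 38.2 and 37.5 FPKM after CCl4, against 26.3 and 24.5 FPKM with oil, for 8 higher and 3 lower of 20. Among 32 heat shock genes 16 rose and 2 fell, led by Hspb1 with 66.5 and 57.1 FPKM after CCl4, against 25.5 and 27.9 FPKM with oil, and the inducible Hspa1b did not pass (7.96 and 8.68 FPKM after CCl4, against 7.38 and 7.66 FPKM with oil). Of 25 targets of p53 12 rose and 3 fell, with Mdm2, its feedback inhibitor, at 7.75 and 8.07 FPKM after CCl4, against 6.57 and 6.11 FPKM with oil, a rise lost without CCl4 replicate 2 or oil replicate 2.

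The kinase named in the title of the series was low in these cells. Eif2ak3, which encodes PERK, had 3.33 and 4.09 FPKM after CCl4, against 2.96 and 3.03 FPKM with oil (log2 change 0.23, SE 0.096, limma adjusted p = 0.0765), and Atf4, translated when PERK is active, had 40.7 and 36.6 FPKM after CCl4, against 37.03 and 35.7 FPKM with oil (log2 change 0.08, SE 0.063, limma adjusted p = 0.32), so neither passed. Eif2ak3 did pass without CCl4 replicate 1 (log2 change 0.35, adjusted p = 0.0265) and with each library rescaled to the same sum (0.31, adjusted p = 0.0421). Ddit3, the pro-apoptotic factor CHOP downstream of both, had 16.3 and 13.7 FPKM after CCl4, against 8.43 and 7.02 FPKM with oil (log2 change 0.87, SE 0.10, limma adjusted p = 7.67e-05). Of 35 genes of the pathway 21 rose, 5 fell and 9 did not pass. Of those that rose 6 met the filter only through CCl4, being under 1 FPKM in both oil libraries. Atf3, Fgf21 and Phgdh were among these. Of the other 29 tested 15 rose and 5 fell, against 25.8% higher and 16.6% lower over all genes. Apart from Nupr1 and Atf3 the rising genes included Fgf21, a hormone of nutrient stress (2.18 and 2.15 FPKM after CCl4, against 0.48 and 0.24 FPKM with oil), Atf5 (221 and 203 FPKM after CCl4, against 102 and 98.97 FPKM with oil) and the serine synthesis gene Phgdh (1.11 and 1.45 FPKM after CCl4, against 0.18 and 0.09 FPKM with oil). Asns, a standard ATF4 target, did not pass (2.85 and 2.33 FPKM after CCl4, against 2.64 and 2.5 FPKM with oil), nor did Trib3 (2.35 and 1.7 FPKM after CCl4, against 1.72 and 1.78 FPKM with oil), and Ddit4 fell (2.14 and 2.08 FPKM after CCl4, against 4.92 and 4.91 FPKM with oil).

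Chaperones of the endoplasmic reticulum rose slightly and together. Of 45 tested 33 rose, 2 fell and 10 did not pass, with a median log2 change of 0.28 and none reaching 2-fold. Hspa5, the main chaperone BiP, had 710.2 and 721 FPKM after CCl4, against 580.4 and 590.2 FPKM with oil (log2 change 0.29, SE 0.040, limma adjusted p = 2.66e-04), a call lost in the joint fit of 8 libraries (adjusted p = 0.152), in which 10 of the list rose. Sec61g, of the channel that admits new proteins, had 64.6 and 62.5 FPKM after CCl4, against 37.1 and 36.7 FPKM with oil. Xbp1, whose spliced product drives this programme, did not pass (91.2 and 86.2 FPKM after CCl4, against 86.04 and 86.97 FPKM with oil). Aminoacyl-tRNA synthetases rose too, 16 of 23 with 0 falling, led by Aars with 86.3 and 87.7 FPKM after CCl4, against 48.96 and 49.1 FPKM with oil.

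Genes of apoptosis moved in both directions. Of 19 BCL2 family genes 7 rose (36.8%) and 6 fell (31.6%), against 25.8% and 16.6% over all tested genes. The sign of their median turned with the scaling. Of the 7, 3 were under 1 FPKM in both oil libraries and met the filter only through CCl4. The killer genes Bbc3 (PUMA), Bmf and Bik fell. Bbc3 had 1.84 and 1.51 FPKM after CCl4, against 4.99 and 4.71 FPKM with oil (log2 change -1.13, SE 0.091, limma adjusted p = 6.72e-06), Bmf had 0.91 and 0.79 FPKM after CCl4, against 2.58 and 2.4 FPKM with oil and Bik had 2.37 and 1.74 FPKM after CCl4, against 7.62 and 7.17 FPKM with oil. Bcl2l1, which protects cells, rose, with 17.1 and 15.9 FPKM after CCl4, against 12.3 and 12.5 FPKM with oil, and Bax, which kills them, rose as well, with 22.5 and 22.3 FPKM after CCl4, against 17.99 and 20.3 FPKM with oil, though not without either CCl4 replicate or oil replicate 1. Bcl2a1b, a protective gene of leukocytes, had 5.15 and 3.51 FPKM after CCl4, against 0.08 and 0.16 FPKM with oil. Casp8, the caspase that death receptors activate, rose (7.23 and 8.35 FPKM after CCl4, against 5.91 and 5.79 FPKM with oil), a call lost without CCl4 replicate 2 or oil replicate 2. Of 14 death receptor genes 6 rose and 0 fell, among them Tnfrsf12a, the receptor for TWEAK, with 24.3 and 20.2 FPKM after CCl4, against 7.48 and 8.6 FPKM with oil, and Fas with 12.8 and 13.3 FPKM after CCl4, against 10.2 and 8.96 FPKM with oil.

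Acute phase proteins, which the liver secretes on signals from IL-6 and IL-1, were already high with oil and moved both ways. Of 45 listed genes 24 rose and 12 fell. Saa1, a serum amyloid, had 17690.0 and 16480.2 FPKM after CCl4, against 20402 and 21875 FPKM with oil (log2 change -0.31, SE 0.048, limma adjusted p = 6.25e-04), and Saa2 had 19809 and 18583 FPKM after CCl4, against 22918 and 24091 FPKM with oil. These near-identical genes summed to 37499 and 35063 FPKM after CCl4, against 43320 and 45966 FPKM with oil, and the decrease of Saa1 did not pass after quantile normalization (log2 change -0.09, adjusted p = 0.178), where that of Saa2 was 0. Lcn2, lipocalin 2, had 2129.7 and 2133 FPKM after CCl4, against 1835 and 1868 FPKM with oil (log2 change 0.20). For scale, the Hamp-/- oil libraries held 333 and 377 FPKM of Saa1 and 24.8 and 27.0 FPKM of Lcn2. The wild-type oil libraries therefore held both genes at a high level without CCl4. Alb rose by 0.20 on the log2 scale, with 35084 and 35881 FPKM after CCl4, against 31164 and 30693 FPKM with oil, an increase that was 0 after quantile normalization.

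Genes of IL-6 and IL-1 signalling, the inhibitor Socs3 among them, rose more often than they fell. Of 35 tested 19 rose (54.3%), 1 fell (2.86%) and 15 did not pass, against 25.8% and 16.6% over all tested genes. Of the 19, 4 were under 1 FPKM in both oil libraries and met the filter only through CCl4. Socs3, the feedback inhibitor of STAT3, had 16.3 and 15.1 FPKM after CCl4, against 4.12 and 3.48 FPKM with oil (log2 change 1.80, SE 0.085, limma adjusted p = 1.32e-07), and Stat3 had 26.8 and 26.5 FPKM after CCl4, against 15.7 and 16.9 FPKM with oil. Il1b, a cytokine of macrophages, had 16.2 and 18.1 FPKM after CCl4, against 0.46 and 0.8 FPKM with oil, and Il6 itself was at 0.15 and 0.16 FPKM after CCl4 and listed at 0 with oil. Of 29 complement genes 13 rose and 10 fell, a balance that equal library medians turned to 10 and 12. C3, the central component, rose, with 4599.8 and 4782 FPKM after CCl4, against 3652 and 3622 FPKM with oil, while C1qa, C1qb and C1qc, which macrophages make, rose, and C6 fell (13.7 and 12.8 FPKM after CCl4, against 37.2 and 36.8 FPKM with oil). Coagulation genes fell in 15 (44.1%) and rose in 10 (29.4%) of 34 cases, against 16.6% and 25.8% over all tested genes. The rescaling to the same sum turned that balance to 12 rising and 10 falling. F7 was at 65.7 and 62.7 FPKM after CCl4, against 85.1 and 90.2 FPKM with oil.

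Chemokines and antigen presentation rose steeply from low levels. Of 20 chemokine and receptor genes 16 rose and 2 fell. Of the 16 that rose, 12 were under 1 FPKM in both oil libraries and so met the filter only where they were high, and of the other 8 tested genes 4 rose and 2 fell. Cxcl2, which draws neutrophils, had 16.3 and 16.98 FPKM after CCl4, against 0.73 and 0.32 FPKM with oil (log2 change 3.54, SE 0.12, limma adjusted p = 1.37e-08), and Cxcl1, which hepatocytes also make, had 32.2 and 30.5 FPKM after CCl4, against 9.58 and 8.72 FPKM with oil. Ccl2, which draws monocytes, was at 2.5 and 3.32 FPKM after CCl4 and listed at 0 in both oil libraries, and its receptor Ccr2 had 2.22 and 2.48 FPKM after CCl4, against 0.05 and 0.23 FPKM with oil. Of 14 listed class II genes 8 were tested and each rose (median log2 change 2.39), with Cd74, the invariant chain, at 40.8 and 40.2 FPKM after CCl4, against 4.51 and 6.95 FPKM with oil. Of the 8, 2 were under 1 FPKM in both oil libraries and met the filter only through CCl4, and the other 6 also rose. Over all tested genes 25.8% rose and 16.6% fell. Class II genes and most of these chemokines are made by macrophages and other leukocytes, whose marker sums rose beside them, and their share in these values was not tested.

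Interferon-stimulated genes rose in 32 of 51, fell in 1 and did not pass in 18 cases. Of the 32, 7 were under 1 FPKM in both oil libraries and met the filter only through CCl4. Of the 42 genes not that low with oil 25 rose and 1 fell, against 25.8% higher and 16.6% lower over all genes. Irf7, the factor that amplifies the response, had 39.8 and 36.4 FPKM after CCl4, against 12.7 and 11.7 FPKM with oil (log2 change 1.57, SE 0.069, limma adjusted p = 7.81e-08), and Bst2, which tethers viruses to the cell, had 228 and 204 FPKM after CCl4, against 99.6 and 110.2 FPKM with oil. Ifit3 and Stat2 did not pass (1.54 and 1.46 FPKM after CCl4, against 1.69 and 2.04 FPKM with oil for Ifit3), and Iigp1, a resistance GTPase, fell (55.1 and 57.8 FPKM after CCl4, against 67.1 and 66.5 FPKM with oil), though not without oil replicate 1.

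Hepcidin mRNA fell in the wild type. Hepcidin, the product of Hamp, blocks the exit of iron from cells, and bone morphogenetic proteins and IL-6 both induce it. Hamp had 1273 and 1136 FPKM after CCl4, against 1805 and 1826 FPKM with oil (log2 change -0.59, SE 0.053, limma adjusted p = 1.34e-05), a call lost in the joint fit of 8 libraries (adjusted p = 0.339), and its copy Hamp2 had 75.98 and 68.1 FPKM after CCl4, against 195 and 190.1 FPKM with oil. Hfe2, the co-receptor hemojuvelin, had 21.6 and 20.6 FPKM after CCl4, against 41.5 and 38.1 FPKM with oil. Among the targets of bone morphogenetic proteins, Id1 had 6.13 and 5.39 FPKM after CCl4, against 1.71 and 1.66 FPKM with oil and Smad7 had 1.49 and 1.64 FPKM after CCl4, against 1.18 and 1.09 FPKM with oil. The rise of Id1 passed, and that of Smad7 was lost when any 1 of the 4 libraries was left out (adjusted p = 0.0623 to 0.177). Of 27 iron genes 14 rose and 4 fell. Fth1, a ferritin chain, had 1876 and 1794 FPKM after CCl4, against 1172 and 1209.9 FPKM with oil, the transferrin receptor Tfrc had 9.82 and 10.4 FPKM after CCl4, against 6.7 and 6.4 FPKM with oil, and the exporter Slc40a1, which hepcidin blocks, had 32.2 and 32.9 FPKM after CCl4, against 37.2 and 36.5 FPKM with oil, a decrease lost without CCl4 replicate 1 or either oil replicate.

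Cytosolic ribosomal proteins rose in 61 of 82 tested genes and 0 fell, with a median log2 change of 0.20. This count was among the least stable: 26 rose without oil replicate 1, 38 with equal library medians and 9 in the joint fit of 8 libraries. Rps12 had 322 and 298 FPKM after CCl4, against 212 and 215 FPKM with oil.

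The response of the wild type was set against that of Hamp-/- hepatocytes in a joint fit of the 8 libraries. In the knockout libraries Hamp, the deleted gene, was at 0.98 and 0.83 FPKM after CCl4, against 2.72 and 0.54 FPKM with oil, far below the wild-type values above. The wild-type change differed from the knockout change in 3355 of 10082 genes tested, 33.3% of them. The 2 libraries of a knockout group differed more than those of the wild type, with SDs of 0.394 after CCl4 and 0.364 with oil, against 0.139 in each wild-type group. Among 56 genes of amino acid breakdown 43 differed, 39 of them with the wild-type change above that of the knockout, and the median log2 change was -0.23 in wild type and -1.22 in the knockout. Of 26 pericentral genes 21 differed, with medians of -0.001 in wild type and -1.80 in the knockout. Of 47 replication genes 25 differed, 23 of them with the wild type above, and the medians were 0.54 in wild type and 0.04 in the knockout. Tubulins went the other way, with 10 of 12 differing, 9 with the wild type below, and medians of 0.55 in wild type and 2.14 in the knockout. Male-biased genes differed in 24 of 32 cases, with medians of -1.37 in wild type and -0.89 in the knockout.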

How the data were processed

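RNA of primary hepatocytes was sequenced by the submitters. The values deposited by the authors are FPKM per gene with 1 column for each library, per the file headers. The genome build is mm8, per the submitters' processing notes. The read totals, annotation, counting tool and aligner were not given in the sources used here, so the depth of each library is unknown. Of 16338 rows, 1 named no gene and was left out, and 23 symbols stored as dates were restored from RefSeq by gene identifier.

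From these values log2(FPKM + 1) was computed for the 4 wild-type libraries. A gene was kept where 2 or more of them held 1 FPKM or more, which left out 6903. The CCl4 and oil groups were compared with limma 3.58.1 in R 4.3.3 (trended prior, 2 residual and 7.71 prior degrees of freedom), with Benjamini-Hochberg adjustment over all tested genes and a threshold of 0.05. The difference between genotypes came from a limma fit of 4 group means over all 8 libraries. The scripts were checked on simulated data. The alternatives tried were 3 other scalings, another pseudocount, 2 other filters, a prior without trend, a replicate block, a joint fit, stricter thresholds and leaving out each library. Python 3.11.15 and matplotlib 3.10.9 made the figures.

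The 66 gene lists and the groups described were chosen with earlier results of these data known. Beside a set of genes of general interest, the rule for naming genes took, from each list, up to 6 members that had the largest changes past the threshold and groups that did not overlap, and the 20 largest increases and decreases above the median level. Other genes named were chosen after their values were seen. Some list members enter the counts and are not reported here by name. Promoters are from RefSeq GRCm38.p6, used for sequence only, because it is not the build of the deposited values.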

Additional observations from a re-analysis of the deposited data

Results flagged for a closer look

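For 17 genes of general interest the log2 change after CCl4 in wild-type hepatocytes differed from that in Hamp-/- hepatocytes, by the limma interaction test over 8 libraries with adjustment over 10082 genes. Each difference below is the wild-type change minus the knockout change. Genotype and anything else that separated the wild-type from the knockout libraries cannot be told apart, and the knockout pairs varied more, as given above.

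Genes of drug and bile acid metabolism and of hepatocyte identity had wild-type changes above those of the knockout. The difference was 4.46 with SE 0.33 and limma adjusted p = 1.93e-04 for Cyp2e1, whose knockout values were 49.8 and 27.7 FPKM after CCl4, against 3031 and 3219 FPKM with oil. For Cyp7a1 it was 4.43 with SE 0.43 and limma adjusted p = 5.14e-04, with knockout values of 0.15 and 0 FPKM after CCl4, against 26.9 and 12.6 FPKM with oil. Glul differed by 1.60 with changes of -0.91 in wild type and -2.50 in the knockout, Hnf4a by 1.12 with 0.20 in wild type and -0.92 in the knockout, and Cps1 by 1.10 with 0.48 in wild type and -0.62 in the knockout. Glul started higher in the knockout, at 98.2 and 102.7 FPKM with oil, against 24.3 and 27.1 FPKM in the wild type. After CCl4 it was at 17.1 and 16.7 FPKM in the knockout, against 12.8 and 13.7 FPKM in the wild type.

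The same direction was found for Ccnd1 and for Egr1, Fos and Jun. The lists of early response genes were split. Of 12 AP-1 genes 5 had the wild-type change above that of the knockout and 4 below. Of 36 other immediate early genes 15 had it above and 12 below. Ccnd1 differed by 3.39 with SE 0.12 and limma adjusted p = 1.17e-05, with knockout values of 11.8 and 12.4 FPKM after CCl4, against 6.11 and 6.09 FPKM with oil, so the knockout oil libraries were above the wild-type ones. Egr1 differed by 3.51 with changes of 2.46 in wild type and -1.06 in the knockout, Fos by 2.58 with 2.45 in wild type and -0.13 in the knockout, and Jun by 1.03 with 0.43 in wild type and -0.60 in the knockout. The knockout oil libraries were far above the wild-type ones for all of them. Egr1 was at 55.13 and 55.45 FPKM, against 1.5 and 1.49 FPKM in wild-type oil. Fos was at 80.0 and 84.5 FPKM, against 1.38 and 1.38 FPKM, and Jun at 65.1 and 70.6 FPKM, against 11.99 and 10.8 FPKM. After CCl4 the knockout values of Egr1, Fos and Jun were still above those of the wild type. Cdkn1a went the other way with a difference of -0.94 and changes of 1.43 in wild type and 2.36 in the knockout. Its level was 5.78 and 6.55 FPKM in knockout oil, against 0.5 and 0.29 FPKM in wild-type oil.

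Among these genes of general interest, Eif2ak3, Atf4, Lcn2, Saa1 and Mt1 had wild-type changes below those of the knockout, and Hspa1b above. The lists did not all share a direction. Over all 10082 genes 33.3% differed. Among 34 heat shock genes 16 differed, 15 with the wild-type change above that of the knockout and 1 below. Of 35 genes of the PERK pathway 15 differed, 11 above and 4 below. Of 45 ER chaperones only 8 differed, a smaller share than over all genes, 6 above and 2 below. Of 45 acute phase proteins 32 differed, 8 above and 24 below. Of 27 NRF2 targets 14 differed, 4 above and 10 below. Eif2ak3 differed by -2.74 with SE 0.15 and limma adjusted p = 5.48e-05, with knockout values of 37.5 and 35.4 FPKM after CCl4, against 3.58 and 3.99 FPKM with oil, and Atf4 differed by -0.53. Lcn2 differed by -5.84 and Saa1 by -4.81, both from knockout oil levels far below those of the wild type. Mt1 differed by -3.16 with changes of -0.49 in wild type and 2.67 in the knockout. Hspa1b differed by 3.56 with changes of 0.13 in wild type and -3.44 in the knockout. Its level was 44.8 and 48.9 FPKM in knockout oil, against 7.38 and 7.66 FPKM in wild-type oil. Hamp2 differed by -1.17, but both knockout CCl4 libraries list it at 0. The differences of Hamp, Ddit3, Hspa5, Myc, Alb, Igf1, Vim and Ccl2 did not pass.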

How the results depend on the processing

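Of 4001 changed genes (2433 higher, 1568 lower), 2664 (1024 lower) passed an FDR of 0.01 and 401 (317 higher, 84 lower) were also at least 2-fold. With a mean of at least 5 FPKM 2622 genes changed (1562 higher, 2585 shared with the 4001), and in a joint fit of 8 libraries 1592 (1026 higher, 566 lower, 1463 shared). Leaving out 1 library gave 2626 to 3083 changed genes (1614 to 1724 higher, 939 to 1469 lower) and 2001 to 3747 genes differing between genotypes, against 3355. The lone library of a group is then assumed to vary like the others. The genotype count was 3119 with library weights and 3413 after quantile normalization. Of the list counts, the at least 2-fold ones were 18 of 29 for male-biased, 10 of 25 for cholesterol, 2 of 34 for amino acid breakdown, 10 of 30 for replication, 0 of 33 for ER chaperones, 10 of 31 for actin, 8 of 32 for interferon and 0 of 61 for ribosomal proteins. With a mean of at least 5 FPKM, which tests fewer genes, 8 replication, 12 macrophage and 18 interferon genes rose, and in the joint fit 16 amino acid genes fell and 10 ER, 19 interferon and 9 ribosomal genes rose. Ribosomal increases were also 38 with equal library medians, 34 with no filter, 38 with a prior without trend and 40 at an FDR of 0.01, and the cause was not tested. Without 1 library the ranges were 25 to 30 for male-biased, 25 for cholesterol, 27 to 32 for amino acid, 15 to 28 for replication, 25 to 32 for ER, 12 to 19 for macrophage, 23 to 29 for actin, 22 to 27 for interferon and 26 to 60 for ribosomal genes. No gene named by the rule changed sign in any setting in which it was tested. Of 357 such genes, 84 no longer passed in the joint fit, 26 with no filter, and at most 18 in each other setting, while Eif2ak3 came to pass in 2 settings, as given above. The replicate numbers did not pair the libraries (correlation of same-numbered deviations -0.0395). With the replicate block 3742 genes changed and 3517 differed between genotypes. Depth is unknown, so the limit for genes near 1 FPKM cannot be stated.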

Other observations

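Clock genes were lower more often than higher. Of 20 tested members of the core clock list 8 fell, 2 rose and 10 did not pass. Dbp, an output factor of the clock, had 28.9 and 23.9 FPKM after CCl4, against 38.8 and 40.6 FPKM with oil (log2 change -0.58), and Per2, a repressor of the clock, had 5.1 and 4.17 FPKM after CCl4, against 7.04 and 6.29 FPKM with oil (-0.45), the call of Per2 being lost without oil replicate 1. The genes that rose were Bhlhe40 (0.72) and Nfil3 (0.58), the factor that opposes Dbp at shared sites. The labels used here give no hour of the day for any sample.

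Junction genes moved both ways, with 5 higher (20.8%) and 8 lower (33.3%) of 24, against 25.8% and 16.6% over all tested genes. Cldn2, a channel-forming claudin, rose (16.2 and 16.1 FPKM after CCl4, against 11.3 and 9.9 FPKM with oil), while Cgn, a scaffold of tight junctions, fell (4.83 and 4.28 FPKM after CCl4, against 6.67 and 6.91 FPKM with oil), as did Ocln, occludin (3.14 and 3.29 FPKM after CCl4, against 4.26 and 4.54 FPKM with oil). In heme synthesis and breakdown 5 of 18 rose (27.8%) and 4 fell (22.2%), near the shares of 25.8% and 16.6% over all tested genes, and Alas1, the rate-limiting enzyme, had 138 and 134 FPKM after CCl4, against 93.9 and 95.4 FPKM with oil (log2 change 0.52). Among 76 subunits of the respiratory chain 19 rose (25%) and 4 fell, also near the share of increases over all genes, with 39 and 2 after rescaling to the same sum and 9 and 6 with equal library medians. Uqcrc1, a core subunit of complex III, fell (74.3 and 70.3 FPKM after CCl4, against 111 and 115 FPKM with oil). Among 77 mitochondrial ribosomal proteins 13 rose (16.9%) and 9 fell (11.7%), both under the shares over all tested genes, and the balance turned to 7 and 11 after quantile normalization. Among 37 proteasome subunits 3 rose (8.11%) and 6 fell (16.2%), near the share of decreases over all genes, against 5 and 1 after rescaling. Autophagy genes had 6 higher (14.6%) and 10 lower (24.4%) of 41, against 12 and 6 after rescaling.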
